A study of Homo sapiens with 82 samples.

Results

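Transcripts of 10 genes that coat, enlarge, fill or empty lipid droplets were followed in HT29 cells, a line established from a human colorectal adenocarcinoma. The genes were PLIN2, PLIN3, PLIN4, PLIN5, CIDEC, PNPLA2, G0S2, HILPDA, DGAT1 and DGAT2, taken by symbol from gene count tables of 51838 rows. HILPDA was matched by its gene identifier (ENSG00000135245.9), since the tables list it under the older symbol C7orf68. None of the 10 had more than 1 row, and all 10 passed the filter on low counts in each fit. RNA-seq covered 8 groups of 4 replicate libraries each. Cells received the carrier DMSO, the LXR agonist GW3965, a second LXR agonist, T0901317, or the PPARG agonist rosiglitazone, each drug at 10 μM, for 24 or 48 h. The 3 drugs of a time point were compared with the same 4 DMSO libraries, and the times did not share theirs. All groups were the same unmodified line, which before treatment was kept in medium without phenol red and with charcoal-treated serum.

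A lipid droplet is a core of triacylglycerol and sterol esters under a single layer of phospholipid, and the perilipins (PLIN genes) are proteins that coat this surface and regulate access of lipases to the core. DGAT1 and DGAT2 make the last acylation step of triacylglycerol synthesis, PNPLA2 (also called ATGL) starts its breakdown, and G0S2 and HILPDA are small proteins that inhibit PNPLA2. LXRs are nuclear receptors for oxysterols and PPARG is one for fatty acid ligands, and enterocytes of the intestine store absorbed fat in such droplets between meals.

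The 250 bases before the start of PLIN2, PLIN4 and G0S2 are shown because these were the genes of the set with the largest changes of level. They are RefSeq sequences on build GRCh38.p14, at chr9:19127493-19127742 (minus strand) for PLIN2, chr19:4518487-4518736 (minus strand) for PLIN4 and chr1:209675162-209675411 (plus strand) for G0S2, each written 5′ to 3′ in the direction of transcription. Capitals mark, in PLIN2, the E-box CACGTG at 69 bases before the start and TTTATA, the TATA box motif TATAAA read on the other strand, at 29 bases, and in PLIN4 ATTGG, the CCAAT box read on the other strand, at 76 bases.
PLIN2: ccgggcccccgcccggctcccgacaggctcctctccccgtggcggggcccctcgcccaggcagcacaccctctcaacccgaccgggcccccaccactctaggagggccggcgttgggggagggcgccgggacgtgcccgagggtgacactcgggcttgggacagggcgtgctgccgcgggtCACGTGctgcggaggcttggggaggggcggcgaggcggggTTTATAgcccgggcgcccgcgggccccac
PLIN4: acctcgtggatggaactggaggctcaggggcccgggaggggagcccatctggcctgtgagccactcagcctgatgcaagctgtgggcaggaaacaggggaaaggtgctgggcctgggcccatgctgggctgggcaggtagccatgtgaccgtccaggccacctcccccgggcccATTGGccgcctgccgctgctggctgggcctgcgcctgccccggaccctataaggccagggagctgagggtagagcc
G0S2: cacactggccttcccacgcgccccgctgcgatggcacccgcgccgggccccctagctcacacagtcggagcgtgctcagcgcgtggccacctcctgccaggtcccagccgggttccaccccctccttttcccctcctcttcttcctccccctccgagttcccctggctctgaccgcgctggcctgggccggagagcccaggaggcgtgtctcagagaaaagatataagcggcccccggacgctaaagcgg
Promoters were found for 7 of the 10 genes, with 2 for CIDEC, and were searched on both strands. The direct repeats AGGTCANAGGTCA (DR1, a form bound by PPARG with RXR) and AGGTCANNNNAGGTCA (DR4, a form bound by LXRs with RXR) were sought with up to 2 mismatches, and neither was found in these windows. Such a match occurred in 2.57% and 2.03% of the 35116 RefSeq promoters searched over the same length. The single motif AGGTCA, of which both repeats are made, was found in 12.1% of all promoters and, among these genes, in PNPLA2, at 239 bases before the start. The CCAAT box, which 32% of all promoters hold, was present in PLIN3, PLIN4 and PLIN5 at 77, 76 and 68 bases before the start. E-boxes stood in 6.34% and TATA boxes in 10.7% of all promoters. The AP1 motif TGANTCA, in 6.57% of all promoters, was found in 1 of the CIDEC promoters, at 95 bases. No searched motif was found in the G0S2 window.

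Total counts per library ran from 21044798 to 51332656, and TMM scaling factors from 0.872 to 1.104, with the lowest in the rosiglitazone libraries of 48 h. All 9 markers of intestinal epithelium were present, with a summed level between 13800 and 21300 CPM (counts scaled to the size of the library) that came mostly from KRT8 and KRT18. The lower markers had levels that lay in opposite directions at 48 h. KRT20 was at 330 ± 22.8 CPM (SD, n = 4) with DMSO and 1120 ± 295 CPM with rosiglitazone, whereas VIL1 was at 145 ± 6.16 CPM with DMSO and 73.2 ± 16.4 CPM with rosiglitazone. The mean levels with DMSO, GW3965, T0901317 and rosiglitazone were 330, 446, 310 and 1120 CPM for KRT20, 16.2, 24, 13.2 and 52.8 CPM for CEACAM5, 145, 239, 229 and 73.2 CPM for VIL1, 1.66, 3.45, 3.01 and 0.824 CPM for CDX1, and 10.7, 15.1, 15.2 and 6.83 CPM for CDX2. Of 5 adipocyte markers, CIDEA was at 0 in all 32 libraries, ADIPOQ and LEP did not exceed 0.0518 CPM in any, and nearly all of the sum came from PLIN1 and CFD. At 24 h this sum ran from 1.33 to 2.28 CPM with DMSO, from 1.68 to 2.46 CPM with the LXR agonists and from 3.75 to 4.95 CPM with rosiglitazone. At 48 h it ran from 2.15 to 2.37 CPM with DMSO, from 4.19 to 4.96 CPM with GW3965, from 1.92 to 3.16 CPM with T0901317 and from 7.77 to 10.1 CPM with rosiglitazone. The summed immune markers, nearly all CD68, ran at 48 h from 6.61 to 8.1 CPM with DMSO, 12.1 to 16.7 CPM with GW3965, 11.6 to 12.7 CPM with T0901317 and 10.1 to 11.2 CPM with rosiglitazone. The summed fibroblast markers, nearly all COL1A1, ran at 48 h from 4.69 to 6.44 CPM with DMSO, 7.64 to 8.52 CPM with GW3965, 5.75 to 8.55 CPM with T0901317 and 6.28 to 7.48 CPM with rosiglitazone. The part of other cell types in the results was not tested, and in bulk RNA a change in the number of cells of a kind cannot be told apart from a change in RNA per cell.

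Levels are given as CPM after TMM scaling over all libraries, which does not correct for gene length, so levels are compared between groups and not between genes. Fold changes are on the log2 scale with their standard error (SE), from the quasi-likelihood test of edgeR, and a gene passed at a Benjamini-Hochberg adjusted p below 0.01 over all genes tested. At 24 h, 3 of the 10 genes rose with GW3965, where 1.86% of the 21781 genes tested rose, and none fell, where 0.868% did. T0901317 raised 1 of the 10 genes (1.33% of all) and lowered none (0.119% of all). Rosiglitazone raised 4 (5.81% of all) and lowered none (6.52% of all). At 48 h, GW3965 raised 5 genes, where 16.1% of the 22470 genes tested rose, and lowered 1, where 17.5% fell. T0901317 raised 5 (14% of all) and lowered 2 (16.1% of all), and rosiglitazone raised 5 (12.3% of all) and lowered 2 (13.1% of all). The median log2 change of the 10 genes was 0.17, 0.15 and 0.16 at 24 h with GW3965, T0901317 and rosiglitazone, and 0.43, 0.39 and 0.33 at 48 h, where the median of all genes lay between -0.02 and 0.01. With a minimum change of 2-fold, 3, 0 and 3 genes passed at 24 h in the same order of drugs, where 0.537%, 0.28% and 2.18% of all genes did, and 3, 2 and 3 at 48 h, where 5.77%, 5.4% and 5.86% did. Without T0901317 replicate 3, DMSO replicate 3 or DMSO replicate 4, the T0901317 count at 24 h was 0, and without rosiglitazone replicate 2 the rosiglitazone count at 48 h was 4. With GW3965, T0901317 and rosiglitazone at 24 h, the libraries did not overlap those of DMSO in 9.73%, 8.55% and 25.6% of all genes. At 48 h the shares were 45.9%, 39.9% and 33.1%, so such separation was common. Of the 10 genes, 5, 3 and 4 were separate at 24 h and 7, 8 and 6 at 48 h. Between GW3965 and T0901317 the share of all genes was 6.5% at 24 h and 23.2% at 48 h.

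**Figure D1:**
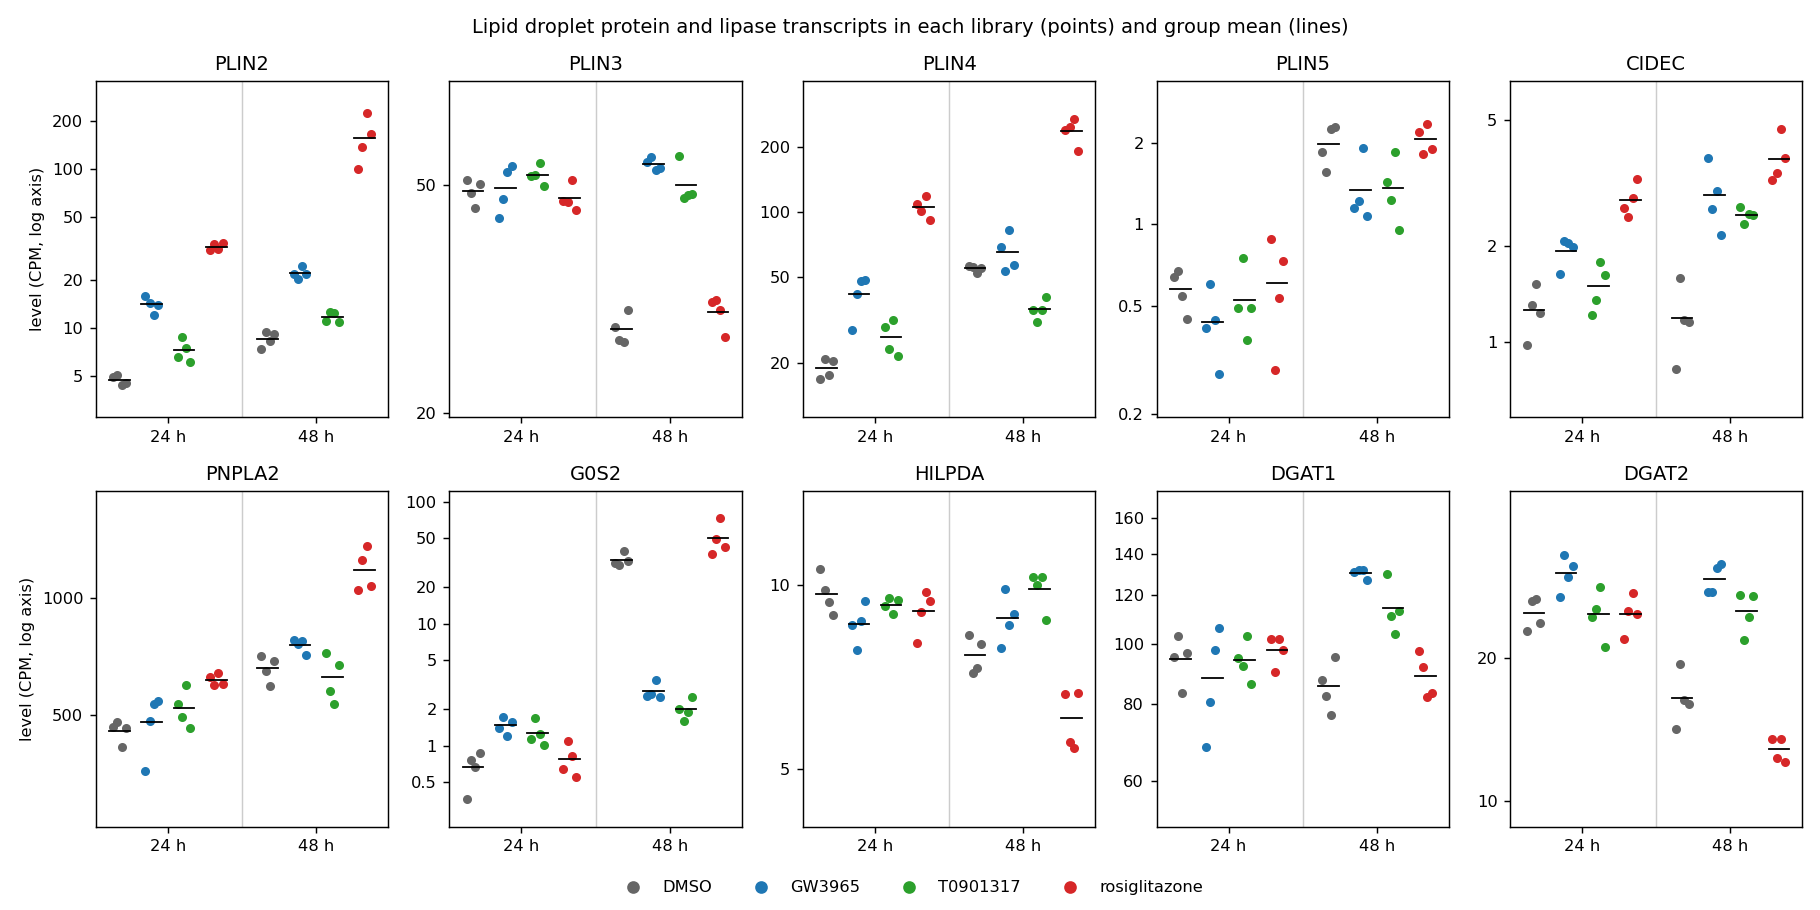
Level (CPM, log axis) of each of the 10 genes in the 32 libraries, with a point per library, a black line at the mean of the 4 libraries of a group, groups coloured by treatment and the time points side by side. PLIN2 and PLIN4 were highest with rosiglitazone at 48 h, and G0S2 was above 30 CPM in the DMSO and rosiglitazone groups of 48 h and below 3.5 CPM in the other 6 groups.

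PLIN2, which coats droplets in most tissues, rose with rosiglitazone and GW3965 at both times. Its level in the DMSO libraries of 24 h was 4.91, 5.02, 4.35 and 4.49 CPM. With rosiglitazone it was 30.7, 33.6, 31.1 and 34.3 CPM, and with GW3965 15.8, 14.4, 12 and 13.9 CPM. The 3 groups did not overlap, and the rises were 6.89-fold (log2 2.79, SE 0.10, adjusted p = 5.85e-13) and 2.99-fold (log2 1.58, SE 0.10, adjusted p = 4.13e-09). T0901317 gave 6.55, 8.74, 7.48 and 6.09 CPM, all above DMSO, a rise of 0.61 on the log2 scale (SE 0.11, adjusted p = 0.00238). That call was lost, with adjusted p between 0.0109 and 0.0139 and a log2 change of 0.57 to 0.59, without DMSO replicate 3, DMSO replicate 4 or T0901317 replicate 3.

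At 48 h PLIN2 stood at 7.35, 9.38, 8.2 and 9.18 CPM in the DMSO libraries and at 99.8, 137, 225 and 166 CPM with rosiglitazone. Replicate 3 was the highest and replicate 1 the lowest of the rosiglitazone libraries, and both were far above every other group. The rise was 18.1-fold (log2 4.18, SE 0.18, adjusted p = 2.43e-12). GW3965 libraries held 21.7, 20.3, 24.3 and 21.8 CPM, a 2.58-fold rise (log2 1.37, SE 0.17, adjusted p = 3.02e-06). With T0901317 the level was 11.1, 12.5, 12.4 and 10.8 CPM, above all DMSO libraries, but the change of 0.45 (SE 0.18) did not pass (adjusted p = 0.0478), though it did with these 8 libraries fitted alone (0.00106). The 8 group means ran in the order DMSO 24 h (4.69 CPM), T0901317 24 h (7.22), DMSO 48 h (8.53), T0901317 48 h (11.7), GW3965 24 h (14), GW3965 48 h (22), rosiglitazone 24 h (32.4) and rosiglitazone 48 h (157). In this order T0901317 24 h overlapped DMSO 48 h and T0901317 48 h overlapped GW3965 24 h, and the other neighbours were separate.

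PLIN4, a perilipin best known from adipocytes, rose with rosiglitazone at both times and with GW3965 at 24 h. The DMSO libraries of 24 h had 16.7, 20.8, 17.6 and 20.4 CPM, and the rosiglitazone libraries 109, 101, 119 and 91.9 CPM, a 5.56-fold rise (log2 2.48, SE 0.15, adjusted p = 5.26e-10). GW3965 gave 28.4, 41.7, 47.8 and 48.3 CPM, with replicate 1 below the others but above all DMSO libraries, and the rise was 2.2-fold (log2 1.14, SE 0.15, adjusted p = 4.15e-05). T0901317 libraries lay between 21.5 and 31.6 CPM, also above DMSO, with a change of 0.49 that did not pass (SE 0.15, adjusted p = 0.111).

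At 48 h the DMSO level of PLIN4 was itself higher, at 56.5, 55.4, 52 and 55 CPM. Rosiglitazone libraries had 240, 248, 272 and 192 CPM, a 4.29-fold rise (log2 2.10, SE 0.12, adjusted p = 1.28e-10). T0901317 libraries had 35.2, 31, 35.2 and 40.3 CPM, all below DMSO, and PLIN4 fell by 0.63 on the log2 scale (SE 0.12, adjusted p = 0.000315). With GW3965 the 4 libraries, at 69, 53.5, 82.6 and 57.1 CPM, overlapped those of DMSO (log2 0.26, SE 0.12, adjusted p = 0.0868).

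PLIN3, a perilipin found on nascent droplets and in the cytosol, did not pass in any drug comparison at 24 h, where all 16 libraries lay between 43.8 and 54.6 CPM. At 48 h the DMSO libraries were down to 28.3, 26.8, 26.6 and 30.3 CPM, whereas GW3965 libraries had 54.8, 56, 53.1 and 53.5 CPM and T0901317 libraries 56.2, 47.5, 48.1 and 48.2 CPM. PLIN3 therefore rose against DMSO with GW3965 (log2 0.95, SE 0.07, adjusted p = 1.46e-09) and T0901317 (log2 0.84, SE 0.07, adjusted p = 8.36e-09), to levels that overlapped those of DMSO at 24 h for T0901317 and lay just above them for GW3965. Rosiglitazone libraries, between 27.2 and 31.5 CPM, overlapped DMSO (log2 0.09, SE 0.07, adjusted p = 0.35).

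PLIN5, which links droplets to mitochondria in oxidative tissues, was low, between 0.281 and 0.882 CPM in all libraries of 24 h and between 0.95 and 2.34 CPM in those of 48 h. It did not pass against DMSO with any drug. The log2 changes ran from -0.42 (SE 0.32, GW3965) to 0.09 (SE 0.32, rosiglitazone) at 24 h, with SEs above those of the other genes. At 48 h they were -0.58 (SE 0.21, adjusted p = 0.0324) with GW3965, -0.55 (SE 0.21, adjusted p = 0.0442) with T0901317 and 0.03 (SE 0.21, adjusted p = 0.916) with rosiglitazone. GW3965 replicate 3, at 1.91 CPM, stood above the other 3 libraries of its group, and without it the change was -0.80 and passed (adjusted p = 0.0045).

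**Figure D2:**
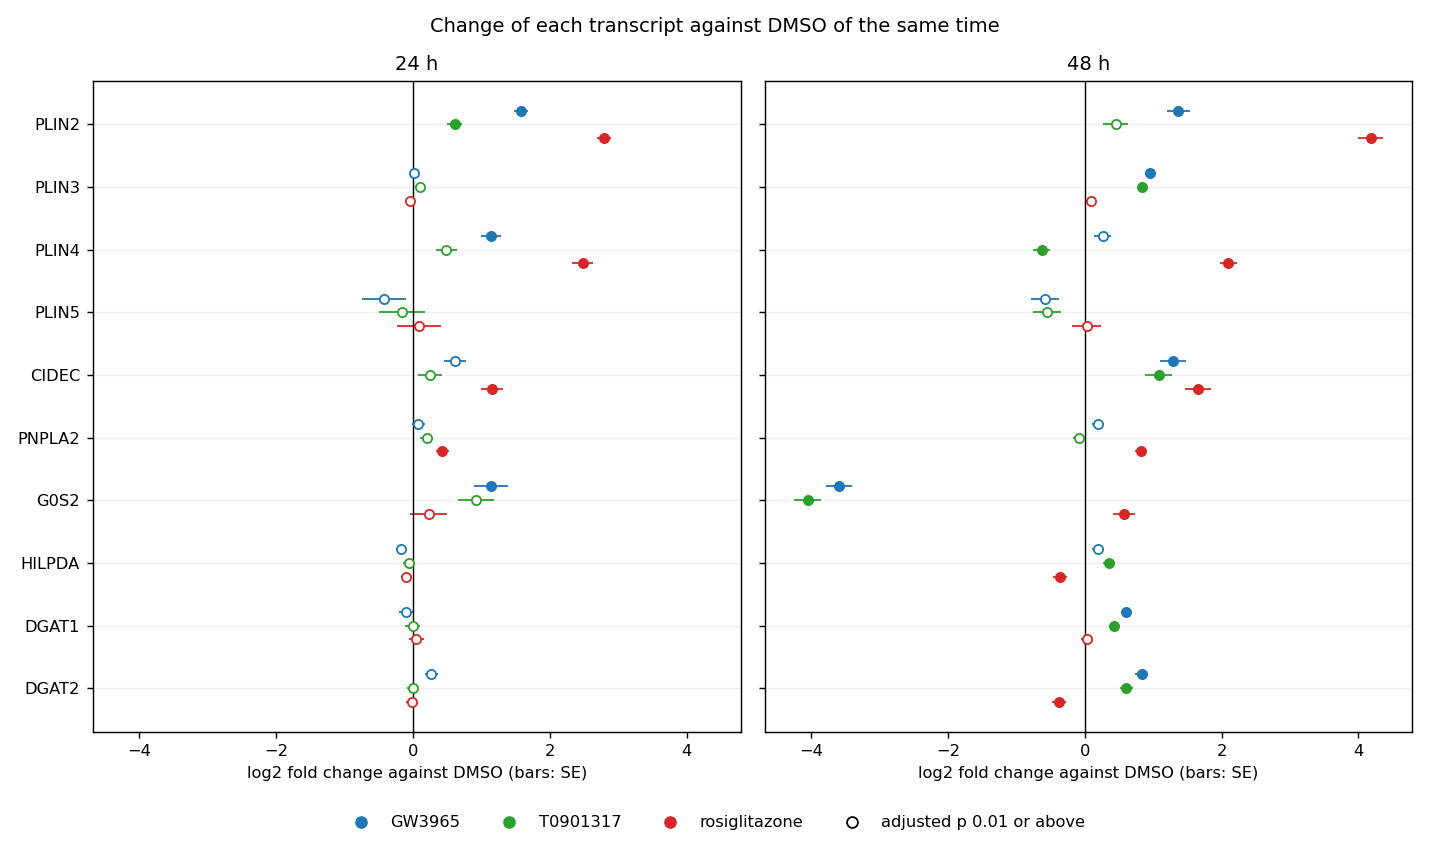
Log2 fold change of each gene against DMSO of the same time, at 24 h (left) and 48 h (right), with bars of 1 SE, drugs by colour and filled points for an adjusted p below 0.01. At 48 h G0S2 lies at -3.59 with GW3965 and -4.05 with T0901317, while PLIN2 and PLIN4 lie at 4.18 and 2.10 with rosiglitazone.

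CIDEC, which fuses droplets into larger ones, rose with rosiglitazone at both times and with all 3 drugs at 48 h. Its level was low throughout. DMSO libraries of 24 h had 0.981, 1.31, 1.52 and 1.23 CPM and rosiglitazone libraries 2.65, 2.48, 2.84 and 3.26 CPM, a 2.21-fold rise (log2 1.15, SE 0.16, adjusted p = 3.32e-05). At 48 h DMSO libraries had 0.823, 1.59, 1.17 and 1.16 CPM and rosiglitazone libraries 3.24, 3.4, 4.68 and 3.8 CPM, a 3.14-fold rise (log2 1.65, SE 0.19, adjusted p = 1.79e-06). GW3965 gave 3.81, 2.63, 3 and 2.18 CPM (log2 1.29, SE 0.19, adjusted p = 2.15e-05) and T0901317 2.66, 2.36, 2.53 and 2.51 CPM (log2 1.08, SE 0.20, adjusted p = 0.000163), and neither overlapped DMSO. At 24 h GW3965 libraries, from 1.64 to 2.08 CPM, were above all DMSO libraries, but the change of 0.61 (SE 0.16) did not pass (adjusted p = 0.0328).

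PNPLA2, the lipase itself, rose with rosiglitazone, and with the LXR agonists it did not pass in the fit of all libraries of a time point. DMSO libraries of 48 h had 709, 648, 593 and 687 CPM and rosiglitazone libraries 1050, 1250, 1360 and 1070 CPM, a 1.77-fold rise (log2 0.82, SE 0.09, adjusted p = 1.14e-06) with no overlap. At 24 h the levels were 466, 478, 413 and 461 CPM with DMSO and 624, 595, 640 and 599 CPM with rosiglitazone (log2 0.43, SE 0.10, adjusted p = 0.00524). The 24 h call was lost, with adjusted p between 0.0106 and 0.0194 and a log2 change of 0.39 to 0.45, without DMSO replicate 3 or 4 or without any 1 of the 4 rosiglitazone libraries. With the LXR agonists the log2 change of PNPLA2 lay between -0.08 and 0.20 at the 2 times (SE 0.09 or 0.10), and adjusted p was at least 0.104. GW3965 libraries of 48 h, from 711 to 777 CPM, were above all DMSO libraries, and with these 8 libraries fitted alone the difference passed (log2 0.19, adjusted p = 0.00523).

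G0S2, the inhibitor of PNPLA2, differed most among the groups. With DMSO it went from 0.368, 0.767, 0.665 and 0.87 CPM at 24 h to 31.1, 30.3, 39.7 and 32.3 CPM at 48 h. With GW3965 at 48 h it was 2.57, 2.63, 3.43 and 2.48 CPM, and with T0901317 2.01, 1.6, 1.9 and 2.49 CPM. Every library of the LXR agonists was thus far below every DMSO library, a level 12-fold lower with GW3965 (log2 -3.59, SE 0.19, adjusted p = 2.75e-11) and 16.5-fold lower with T0901317 (log2 -4.05, SE 0.20, adjusted p = 8.54e-12). All of these libraries remained above the DMSO libraries of 24 h, which had 15 to 31 counts each.

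Rosiglitazone libraries of 48 h had 37.2, 49.3, 72.7 and 42.3 CPM of G0S2. Replicate 3 stood above the others and replicate 1 fell within the range of DMSO, and the rise was 1.49-fold (log2 0.58, SE 0.16, adjusted p = 0.00668). The call was lost, with adjusted p between 0.0134 and 0.0279, without rosiglitazone replicate 2 or 3 or without DMSO replicate 1, 2 or 4, and the log2 change was 0.34 without rosiglitazone replicate 3. It was 0.38 (adjusted p = 0.0408) when libraries were scaled by their totals alone, and the call was also lost with the 8 libraries compared alone (0.0244). At 24 h GW3965 gave 1.4, 1.7, 1.21 and 1.55 CPM, above all DMSO libraries, a 2.2-fold rise (log2 1.14, SE 0.25, adjusted p = 0.00821), which was lost, with adjusted p between 0.0104 and 0.0351, without any 1 of DMSO replicates 1, 2 and 3 and GW3965 replicates 1, 2 and 4, with library size scaling (0.0106) and with the 8 libraries compared alone (0.0196). T0901317, at 1.01 to 1.69 CPM, was also above all DMSO libraries without passing (log2 0.92, SE 0.26, adjusted p = 0.0728), and rosiglitazone overlapped DMSO (log2 0.23, SE 0.27, adjusted p = 0.615).

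HILPDA, an inhibitor of PNPLA2 known for its induction by hypoxia and fatty acids, varied little, between 5.42 and 10.6 CPM over all 32 libraries. At 48 h DMSO libraries had 8.29, 7.17, 7.32 and 7.99 CPM, T0901317 libraries 10.3, 9.99, 10.3 and 8.75 CPM and rosiglitazone libraries 6.64, 5.54, 5.42 and 6.67 CPM. T0901317 was above and rosiglitazone below DMSO without overlap, and HILPDA rose by 0.35 on the log2 scale with the first (SE 0.09, adjusted p = 0.00493) and fell by 0.36 with the other (SE 0.10, adjusted p = 0.00678). The first call was lost without DMSO replicate 2, 3 or 4 or T0901317 replicate 1, 2 or 3 (adjusted p between 0.0103 and 0.0219). The second was lost without DMSO replicate 1, 3 or 4 or rosiglitazone replicate 2 or 3 (adjusted p between 0.0114 and 0.0284), and also without the filter on low counts (0.0134) and with the 8 libraries compared alone (0.021). With GW3965 the change at 48 h was 0.19 (SE 0.09, adjusted p = 0.105), and at 24 h no drug passed, with log2 changes between -0.17 and -0.06.

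DGAT1 and DGAT2, the acyltransferases, did not pass with any drug at 24 h and were higher than in DMSO with both LXR agonists at 48 h. DGAT1 libraries of 48 h had 87.4, 82.3, 76.6 and 95.2 CPM with DMSO, 131, 132, 132 and 127 CPM with GW3965 and 130, 111, 104 and 113 CPM with T0901317. Both groups were above DMSO, by 0.61 (SE 0.08, adjusted p = 2.09e-06) and 0.43 (SE 0.08, adjusted p = 0.000137) on the log2 scale. Rosiglitazone, at 82.2 to 97.3 CPM, overlapped DMSO (log2 0.03, SE 0.08, adjusted p = 0.763). DGAT2 had 14.2, 19.4, 16.3 and 16 CPM with DMSO, 27.4, 27.4, 30.8 and 31.5 CPM with GW3965, 27.1, 21.8, 24.3 and 27 CPM with T0901317 and 13.5, 12.3, 13.5 and 12.1 CPM with rosiglitazone. Against DMSO it was higher by 0.83 (SE 0.09, adjusted p = 5.31e-07) and 0.61 (SE 0.09, adjusted p = 2.39e-05) with the LXR agonists and fell by 0.38 with rosiglitazone (SE 0.10, adjusted p = 0.00396). From 24 to 48 h the mean of DGAT2 went from 24.8 to 16.5 CPM with DMSO. It went from 30.1 to 29.3 CPM with GW3965 and from 24.7 to 25.1 CPM with T0901317. At 24 h GW3965 libraries were above all DMSO libraries without passing (log2 0.27, SE 0.09, adjusted p = 0.0927). The fall with rosiglitazone was lost, with adjusted p between 0.0105 and 0.0257, without DMSO replicate 2 or 3 or rosiglitazone replicate 2 or 4, and with the 8 libraries compared alone (0.0107).

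The levels in DMSO alone changed between the time points, which sets the base of each comparison. In a fit of all 32 libraries, 8 of the 10 genes differed between DMSO at 48 h and at 24 h, where 38.6% of 23140 genes did, and 5 were higher and 3 lower at 48 h. G0S2 rose 50.6-fold (log2 5.66, SE 0.22, adjusted p = 4.94e-20), PLIN5 by 1.79 (SE 0.26), PLIN4 by 1.54 (SE 0.15), PLIN2 by 0.86 (SE 0.17) and PNPLA2 by 0.54 (SE 0.10), all on the log2 scale. PLIN3 fell by 0.80 (SE 0.07), DGAT2 by 0.59 (SE 0.09) and HILPDA by 0.33 (SE 0.09). The call on HILPDA was lost without DMSO 24 h replicate 1 (log2 -0.28, adjusted p = 0.0133). CIDEC (-0.09, SE 0.19) and DGAT1 (-0.15, SE 0.10) did not pass. The counts of the time points came in separate tables, so time in culture and handling cannot be told apart.

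Whether the response to a drug differed between the time points was tested as the difference of the 2 log2 changes in the same fit. The response to GW3965 differed in 5 of the 10 genes, 3 higher and 2 lower at 48 h, where 21.6% of all genes passed. It was lower in G0S2 by 4.73 (SE 0.32, adjusted p = 4.99e-13) and in PLIN4 by 0.88 (SE 0.20, adjusted p = 0.00097), and higher in PLIN3 by 0.94 (SE 0.09, adjusted p = 2.64e-09), DGAT1 by 0.72 (SE 0.13, adjusted p = 9.82e-05) and DGAT2 by 0.55 (SE 0.13, adjusted p = 0.00121). For T0901317 it differed in 4, with 2 higher and 2 lower, where 17.4% of all genes passed. G0S2 differed by -4.96 (SE 0.35, adjusted p = 1.37e-12), PLIN4 by -1.11 (SE 0.20, adjusted p = 8.55e-05), PLIN3 by 0.75 (SE 0.09, adjusted p = 2.34e-07) and DGAT2 by 0.61 (SE 0.13, adjusted p = 0.000532). The response to rosiglitazone differed in PLIN2 alone among the 10 genes, by 1.41 (SE 0.22, adjusted p = 0.000105), where 2.45% of all genes passed. The DMSO libraries are shared by the 3 drugs, so these differences are not independent of each other. In G0S2, PLIN3, PLIN4 and DGAT2 the DMSO level itself had changed with time in the direction opposite to the difference in response.

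**Figure D3:**
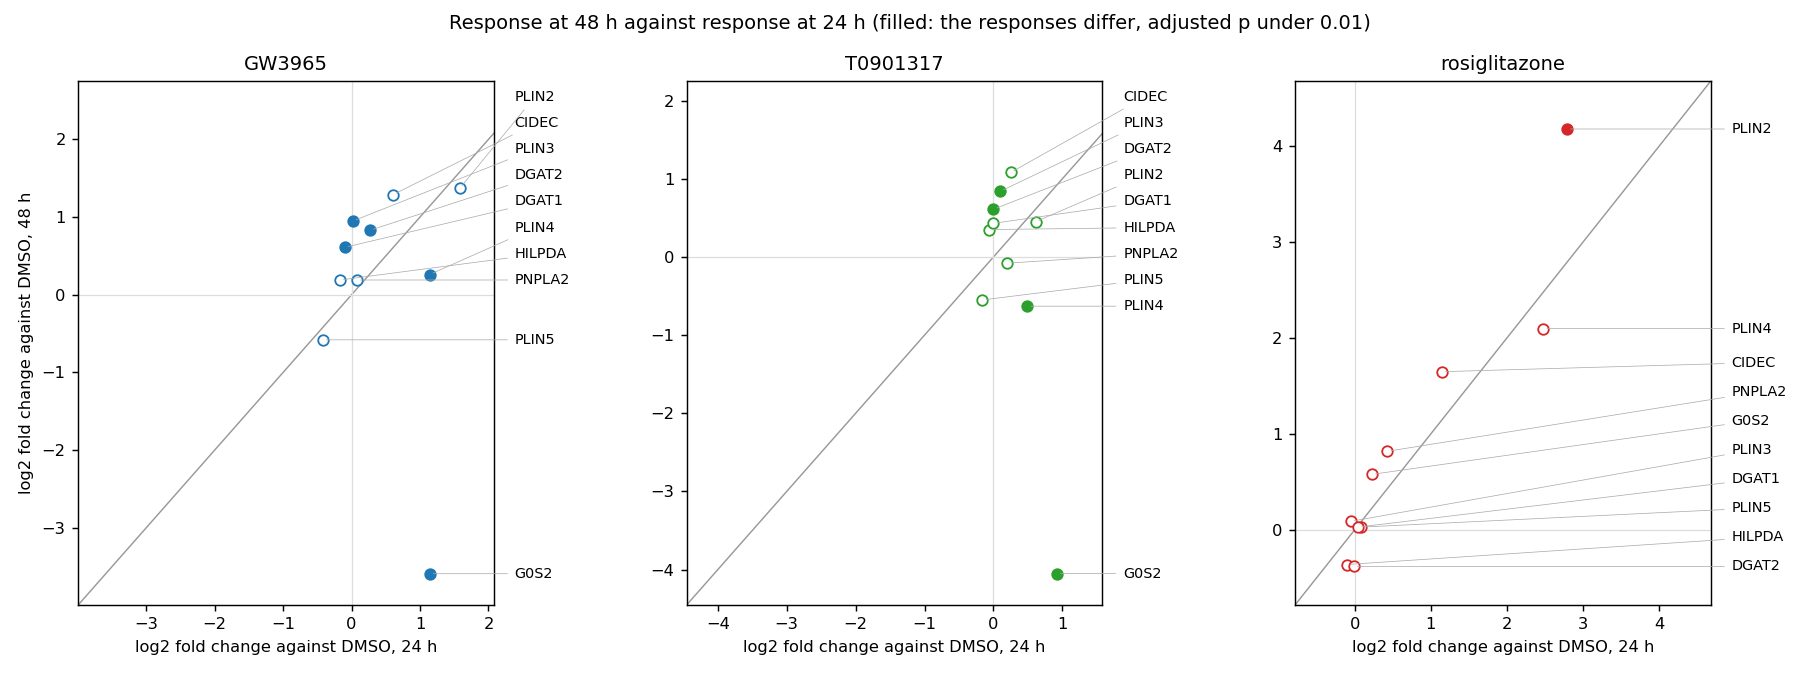
Log2 fold change against DMSO at 48 h (vertical) plotted against that at 24 h (horizontal) for the 10 genes and each drug, with the grey line where both are equal and filled points where the responses differ at an adjusted p below 0.01. G0S2 lies far below the line with GW3965 and T0901317, and PLIN2 with rosiglitazone is the filled point of its panel.

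The drugs were also compared with each other at the same dose and time, without the DMSO libraries in the contrast. GW3965 gave a higher level of PLIN2 than T0901317, by 0.97 (SE 0.10, adjusted p = 1.12e-05) at 24 h and by 0.91 (SE 0.17, adjusted p = 0.00105) at 48 h, and the libraries did not overlap at either time. At 24 h PLIN2 was the 1 gene of 10 that passed, where 0.79% of all genes did. PLIN4 differed by 0.65 at 24 h (SE 0.15, adjusted p = 0.0254), a difference that passed with DESeq2 (adjusted p = 0.00114), with library size scaling (0.00765), with no filter on low counts (0.00312) and without GW3965 replicate 1 (log2 0.79, adjusted p = 0.000241). At 48 h 2 of 10 passed, where 8.36% of all genes did, the second being PLIN4, which was higher with GW3965 by 0.88 (SE 0.12, adjusted p = 0.000104). The other 8 genes differed at 48 h by between -0.16 (HILPDA) and 0.46 (G0S2, SE 0.22, adjusted p = 0.17) without passing, which does not show that the 2 LXR agonists act alike on them.

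Rosiglitazone against GW3965 passed in 2 genes at 24 h, where 10.7% of all genes did, namely PLIN2 (log2 1.20, SE 0.09, adjusted p = 1.6e-08) and PLIN4 (log2 1.34, SE 0.14, adjusted p = 1.13e-06), both higher with rosiglitazone. G0S2 was lower with rosiglitazone at 24 h by 0.91 without passing (SE 0.25, adjusted p = 0.0135), and passed with DESeq2 (0.00517). At 48 h the comparison passed in 8 genes, where 45% of all genes did. Higher with rosiglitazone were G0S2 by 4.16 (SE 0.19, adjusted p = 1.29e-12), PLIN2 by 2.82 (SE 0.17, adjusted p = 4.73e-11), PLIN4 by 1.84 (SE 0.12, adjusted p = 1.72e-10) and PNPLA2 by 0.63 (SE 0.09, adjusted p = 9.03e-06). PNPLA2 and its inhibitor G0S2 were thus both higher with rosiglitazone than with GW3965 at 48 h. HILPDA, the other inhibitor of PNPLA2 in the set, was lower. Lower with rosiglitazone were DGAT2, PLIN3, DGAT1 and HILPDA, with log2 differences of -1.20, -0.87, -0.57 and -0.56 (adjusted p at most 6.15e-05). CIDEC, at 0.37 (SE 0.18, adjusted p = 0.0843), and PLIN5, at 0.61 (SE 0.21, adjusted p = 0.0194), did not pass, and PLIN5 did without GW3965 replicate 3 (log2 0.84, adjusted p = 0.00237).

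Of 39 other genes of droplet formation and breakdown, 34 were tested at each time. With GW3965 5 rose (1.86% of all genes) and none fell (0.868%) at 24 h, and 17 rose (16.1%) and 4 fell (17.5%) at 48 h. T0901317 raised 3 (1.33% of all genes) and lowered none (0.119%) at 24 h, and raised 18 (14%) and lowered 2 (16.1%) at 48 h. With rosiglitazone 7 rose (5.81% of all genes) and 6 fell (6.52%) at 24 h, and 11 rose (12.3%) and 6 fell (13.1%) at 48 h. At 48 h GW3965, T0901317 and rosiglitazone moved the median log2 value of these 34 genes by 0.32, 0.34 and 0.09, and at 24 h by 0.04 to 0.06, while the median of all genes lay between -0.02 and 0.01.

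Among the genes that activate fatty acids, ACSL1 rose with GW3965 by 1.60 (SE 0.05, adjusted p = 2.49e-14) at 24 h and by 2.08 (SE 0.07, adjusted p = 1.51e-14) at 48 h, when its level was 175 ± 5.35 CPM against 41.2 ± 2 CPM in DMSO (SD, n = 4). ACSL3, which acts on nascent droplets, rose by 1.10 (SE 0.06) and 0.87 (SE 0.07) with the same drug, and both genes also rose with T0901317. With rosiglitazone the mean of ACSL1 was 64.1 CPM against 44 CPM with DMSO at 24 h, and 59.3 against 41.2 CPM at 48 h. That of ACSL3 was 144 against 126 CPM at 24 h and 184 against 152 CPM at 48 h. LPIN1, a phosphatidate phosphatase that makes the diacylglycerol used by the DGAT enzymes, rose with GW3965 by 1.06 (SE 0.06, adjusted p = 5.99e-10) at 24 h and 1.38 (SE 0.08, adjusted p = 1.82e-10) at 48 h, and fell by 0.56 with rosiglitazone at 24 h (SE 0.06, adjusted p = 3.19e-06). Its mean with T0901317 was 33.8 CPM against 18.7 CPM with DMSO at 24 h, and 39.5 against 16.3 CPM at 48 h. With rosiglitazone at 48 h it was 19.6 CPM, above DMSO. Its relative LPIN3 rose at 48 h with GW3965 (log2 1.23, SE 0.13) and T0901317 (log2 1.13, SE 0.13) and fell by 1.01 with rosiglitazone (SE 0.14, adjusted p = 1.09e-05). At 48 h the acyltransferase GPAT3 was lower than in DMSO by 1.61 with GW3965 and by 1.59 with T0901317 (SE 0.21 each). It was higher by 1.75 with rosiglitazone (SE 0.20, adjusted p = 1.36e-06), where replicates were spread widely (111 ± 42.4 CPM against 32.5 ± 6.59 CPM with DMSO). Its DMSO mean had been 9.33 CPM at 24 h. With GW3965 the mean was 12.6 CPM at 24 h and 10.7 CPM at 48 h, and with T0901317 11.7 and 10.8 CPM. At 24 h GPAT3 was higher with GW3965 than with DMSO (log2 0.43, SE 0.08, adjusted p = 0.00194).

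LIPE, the hormone-sensitive lipase that acts after PNPLA2, rose with rosiglitazone by 1.87 at 24 h (SE 0.12, adjusted p = 1.24e-09), with 196 ± 14.3 CPM against 53.3 ± 3.29 CPM in DMSO (SD, n = 4), and by 2.22 (SE 0.10, adjusted p = 3.14e-12) at 48 h. With GW3965 and T0901317 its mean was 52.5 and 49.7 CPM at 24 h. At 48 h it was 65.2 and 53.1 CPM, against 40.7 CPM with DMSO. PLIN1, the perilipin of adipocytes, rose with rosiglitazone by 1.82 (SE 0.21) at 24 h and 2.53 (SE 0.19) at 48 h, to 5.74 ± 0.56 CPM. AGPAT2, which makes phosphatidic acid, rose with this drug by 1.03 (SE 0.06) and 1.42 (SE 0.08). It also rose with GW3965 at 24 h, by 0.39 (SE 0.06, adjusted p = 0.000223). At 48 h the mean of AGPAT2 was 178 CPM with GW3965, 125 CPM with T0901317 and 113 CPM with DMSO. AGPAT4, a relative of AGPAT2, fell by 1.86 with rosiglitazone at 24 h (SE 0.27, adjusted p = 5.79e-05), from 1.22 ± 0.323 to 0.337 ± 0.0864 CPM. At 48 h its mean was 1.2 CPM with rosiglitazone and 1.11 CPM with DMSO. METTL7A, a droplet-associated protein, rose by 1.52 (SE 0.19) with GW3965 and 1.93 (SE 0.19) with T0901317 at 48 h and fell with rosiglitazone, by 1.21 (SE 0.32, adjusted p = 0.00977) at 24 h and by 1.68 (SE 0.27, adjusted p = 5.38e-05) at 48 h. Its level was low, at 0.243 ± 0.12 CPM with rosiglitazone against 0.574 ± 0.0761 CPM with DMSO at 24 h. At 48 h these levels were 0.271 ± 0.125 and 0.864 ± 0.172 CPM. Of the sterol esterification enzymes, SOAT1 fell by 1.35 with rosiglitazone at 48 h (SE 0.19, adjusted p = 1.14e-05) and SOAT2, at 0.319 ± 0.0734 CPM against 0.106 ± 0.0479 CPM, rose (log2 1.57, SE 0.45, adjusted p = 0.00914). The mean of SOAT1 at 48 h was 3.6, 4.93, 6 and 1.42 CPM with DMSO, GW3965, T0901317 and rosiglitazone. That of SOAT2 was 0.168 CPM with GW3965 and 0.299 CPM with T0901317. MOGAT2, a monoacylglycerol acyltransferase of enterocytes, was at 0.675 ± 0.146 CPM with GW3965 and 0.477 ± 0.131 CPM with T0901317 at 48 h and passed with both (adjusted p = 5.64e-06 and 4.02e-05). No fold is given for it, since the DMSO libraries of 48 h held 0.0294 ± 0.0588 CPM, with a median of 0.

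**Figure D4:**
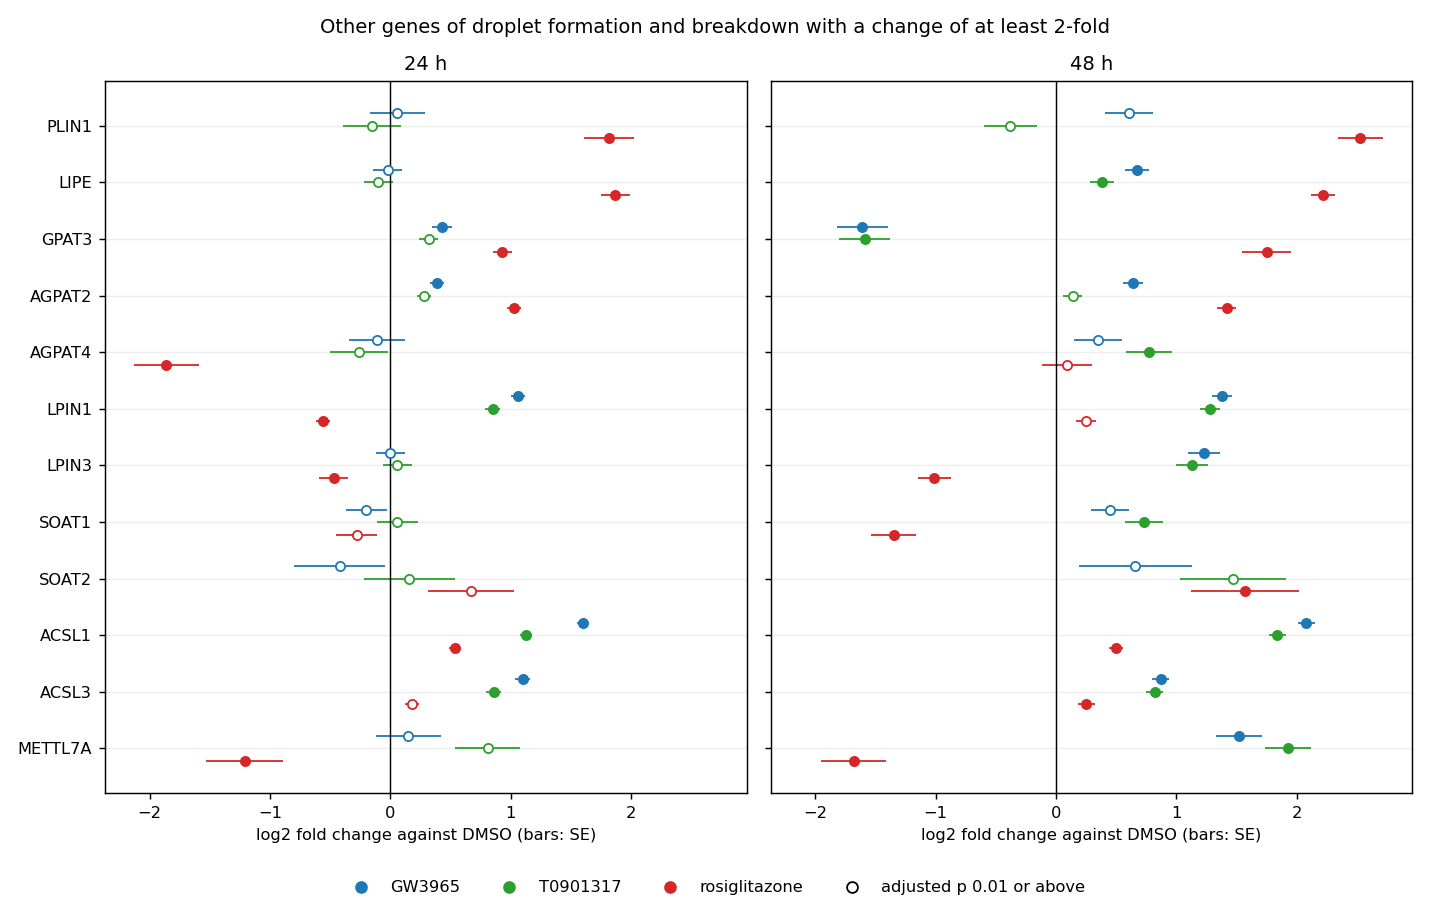
Log2 fold change against DMSO at 24 h (left) and 48 h (right), with bars of 1 SE, for 12 other genes of droplet formation and breakdown that passed with a change of at least 2-fold in a comparison of a drug with DMSO, with filled points for an adjusted p below 0.01. MOGAT2 also met this rule and is not drawn, since its DMSO level at 48 h was close to 0, and LIPE and PLIN1 lie at 2.22 and 2.53 with rosiglitazone at 48 h.

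The genes whose 8 group means of log2 CPM were most like those of PLIN2, among 14507 genes above a mean log2 CPM of 1, were DHRS9, a retinol dehydrogenase (Pearson r = 0.991), NPAS2, a circadian transcription factor (r = 0.986), and RP11-324O2.4 (r = 0.985). DHRS9 went from 0.701 CPM with DMSO to 3.05 CPM with rosiglitazone at 24 h and from 1.49 to 13.7 CPM at 48 h. Among those most like G0S2 were XPOT, the export receptor of tRNA (r = 0.998), and SLC7A1, a transporter of cationic amino acids (r = 0.997). SLC7A1 was at 1520 CPM with DMSO, 1860 CPM with rosiglitazone and 777 and 691 CPM with GW3965 and T0901317 at 48 h. These correlations are over 8 points, each the mean of a group, and were picked as the highest among 14507 genes. They describe likeness of pattern only.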

How the data were processed

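The authors sequenced paired-end mRNA libraries and deposited raw counts per gene in 1 table for each time point. The submitters' processing notes name TopHat, Cufflinks and hg19, while neither counting program nor strand setting is given in the sources used here. The low counts were whole numbers without gaps, and the 2 tables held no per-sample columns beyond the 32 libraries. Counts were filtered with filterByExpr, scaled by TMM and tested in edgeR 4.0.16 (R 4.3.3) with all 16 libraries of a time point, or all 32 for changes over time (BCV 0.0981, 0.101 and 0.0998). SE is the log2 change divided by the root of F. The labels do not say that replicates were separate cultures, so p-values measure the spread between these samples. The 10 genes were given and all were described, the other pathway genes named are those with an adjusted p below 0.01 and a change of at least 2-fold, and genes and lists were chosen with earlier results of these data known. The 3 genes most like PLIN2 and G0S2 in pattern were also named, except 1 that is not reported here. DESeq2 1.42.0 was an alternative. Replicate numbers were not treated as pairs. Scripts were tested on simulated data. Peaks of ChIP-seq were not used here, since they and the gene coordinates are on different builds.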

Additional observations from a re-analysis of the deposited data

Results flagged for a closer look

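Among 80 sets of 4 libraries (10 genes in 8 groups), 2 held a library far from the other 3, and chance alone flags about 1 in 20 such sets. PLIN3 with T0901317 at 48 h was 56.2 CPM in replicate 1 and between 47.5 and 48.2 CPM in the others. G0S2 with GW3965 at 48 h was 3.43 CPM in replicate 3 and between 2.48 and 2.63 CPM in the others.

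The response to a drug differed between 24 and 48 h in 10 of the tests of the difference. The rule was an adjusted p below 0.01 in the fit of all 32 libraries, and all 10 genes were tested for each drug. For GW3965, T0901317 and rosiglitazone, 5, 4 and 1 of the 10 genes passed, where 21.6%, 17.4% and 2.45% of 23140 genes did. With GW3965 the log2 difference (response at 48 h minus response at 24 h) was 0.94 for PLIN3, -0.88 for PLIN4, -4.73 for G0S2, 0.72 for DGAT1 and 0.55 for DGAT2. With T0901317 it was 0.75 for PLIN3, -1.11 for PLIN4, -4.96 for G0S2 and 0.61 for DGAT2. With rosiglitazone it was 1.41 for PLIN2.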

How the results depend on the processing

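No log2 change of the 10 genes reversed among the called values under any setting. Of 798 values under other tools, scalings, filters, libraries in the fit or the block, 771 kept their side of the threshold, 9 lost it and 18 gained it, and of 1360 values with 1 library left out, 1313 kept it, 36 lost it and 11 gained it.

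The number of genes that passed moved by more than 1.5 times as follows, and the cause was not tested. With DESeq2 it was 2 in place of 1 for GW3965 against T0901317 at 24 h and 4 in place of 2 for rosiglitazone against GW3965 at 24 h. Scaling by library size gave 2 and 4 in these comparisons and 7 in place of 4 for the difference between the T0901317 responses, and no filter on low counts gave 2 in the first. With the 8 libraries compared alone, rosiglitazone at 48 h gave 4 in place of 7. A minimum change of 2-fold left 0 for T0901317 at 24 h, 3, 2 and 3 for GW3965, T0901317 and rosiglitazone at 48 h, 0 for GW3965 against T0901317 at 24 and at 48 h, and 4 for rosiglitazone against GW3965 at 48 h. Leaving out 1 library gave 0 to 1 for T0901317 at 24 h, 4 to 7 for rosiglitazone at 48 h and 1 to 2 for GW3965 against T0901317 at 24 h.

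Library size scaling moved the median log2 change of all genes from -0.01 to -0.19 for rosiglitazone at 48 h and from -0.02 to -0.16 for rosiglitazone against GW3965 at 48 h, and by at most 0.10 in the other comparisons, and no direction of the named calls flipped under it. Same-numbered libraries deviated together little (r from -0.103 to 0.172, with 2 of 24 pairs above 0.1, at 24 h and from -0.051 to 0.098 at 48 h), so the numbers were not taken as pairs. With the replicate number as a block, the count was 3 for GW3965, 1 for T0901317 and 3 for rosiglitazone at 24 h, 7, 7 and 6 at 48 h, 1 and 2 for GW3965 against T0901317 at 24 and 48 h, 3 and 9 for rosiglitazone against GW3965, 5, 4 and 1 for the differences between the responses to GW3965, T0901317 and rosiglitazone, and 8 for DMSO over time. The block ended the calls on PNPLA2 with rosiglitazone at 24 h (adjusted p = 0.0102) and HILPDA with rosiglitazone at 48 h (0.0118), and PLIN5 with GW3965 at 48 h (0.00989), PLIN5 for rosiglitazone against GW3965 at 48 h (0.00555) and G0S2 for the same drugs at 24 h (0.00797) passed with it. Sites of the receptors near the promoters, with their alternatives, were planned and not run. The standard error was largest for PLIN5, G0S2 and CIDEC at 24 h, which had the lowest counts there.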

Other observations

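In the rosiglitazone group of 48 h, replicate 3 was the highest of the 4 libraries for 6 of the 10 droplet genes, PLIN2, PLIN4, PLIN5, CIDEC, PNPLA2 and G0S2, and the lowest for HILPDA and DGAT1. Its TMM scaling factor, 0.872, was the lowest of the 32 libraries. In the GW3965 group of 24 h, replicate 1 was the lowest for 6 of the 10 genes, PLIN3, PLIN4, CIDEC, PNPLA2, DGAT1 and DGAT2, and the highest for PLIN2. Counts of this size also occurred elsewhere, as in T0901317 replicate 4 at 24 h, the lowest for 7 of the 10 genes. These libraries were picked out after their values were seen, and the cause was not tested.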
